A study of Mus musculus with 2 samples.

Results

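The genes described here are 9 members of the PARP family (Parp1, Parp2, Parp3, Parp8, Parp9, Parp10, Parp11, Parp12 and Parp14) together with Dtx3l, the ubiquitin ligase that partners Parp9. These 10 genes were taken by symbol from the 22909 genes that the array probes could be named for, by a rule that names no measured value, although earlier results of these data were known when they were chosen. 17 probes represented them.

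PARP enzymes use NAD to attach ADP-ribose to proteins. Parp1, Parp2 and Parp3 are activated by broken DNA and act in its repair, and Parp1 builds most of the poly-ADP-ribose of a cell. Parp9, Parp10, Parp11, Parp12 and Parp14 transfer single ADP-ribose units or only bind them, and they and Dtx3l are known as genes that interferons induce through STAT transcription factors in many cell types, the intestinal epithelium included. Parp8 is a little studied mono-ADP-ribosyltransferase that belongs to neither class. The comparison made here is between the interferon-inducible and the DNA-dependent members.

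RNA of whole colon from C57BL/6 mice aged 8 weeks was hybridised to Agilent mouse expression arrays with a single dye, Cy3. One array held RNA of Villin-Cre mice, the controls, and the other RNA of Villin-Cre; EP4flox/flox mice, called EP4 cKO, so that both groups carry the Cre transgene and differ in the floxed allele of Ptger4, the gene of the prostaglandin E receptor EP4. No treatment was given for these arrays. The labels state that RNA from 3 pools of colon went into each array, so each genotype has 1 array, there was no replicate check, no test was made, and every value describes these arrays. Villin-Cre is active in intestinal epithelium, and the immune, stromal and muscle cells of the whole colon keep the receptor gene.

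Signals were scaled on each array to a trimmed mean of 2500 and are given in these array units, which allow a comparison of 1 probe between arrays but not of different probes. The error beside a signal is the error that the scanner software assigns to that spot, at most 13.1% and in the median 10.1% of the signal for the members measured on both arrays. It holds no spread between mice. Probes that the software did not find well above background had no measured level. Where that was so on 1 array only, a fold is given as a bound against the lowest level well above background there, 125 for Villin-Cre and 57.8 for EP4 cKO, or against the dim probe's own signal where that is higher. In whole tissue, more cells of a type and more RNA per cell cannot be told apart.

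The targeted gene did not separate the arrays. On the array labelled Villin-Cre the brighter probe of Ptger4 read 6227, against 5661 on that labelled EP4 cKO. The log2 ratio was -0.14 and became 0.02 when arrays were scaled to the 75th percentile. The dimmer probe read 393 and 592. Where these probes lie relative to the floxed exon was not determined, so every direction given below rests on the labels, and each genotype named stands for the array labelled with it. Values are given for Villin-Cre first. The median log2 ratio of the 12816 genes measured on both arrays was -0.15, and ratios can be read against that shift.

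Promoter sequences of 7 of the 10 members were found in the RefSeq table for mouse assembly GRCm38.p6, as windows from 250 bases before to 50 bases after a transcription start. Parp9, Parp10 and Parp14 had no entry. 3 motifs were searched on both strands: the core of the interferon-stimulated response element (GAAANNGAAA, bound by the interferon-activated STAT2 and IRF9 complex or by other IRF factors), the GAS element (TTCNNNGAA, bound by STAT dimers) and the GC box (GGGCGG, bound by Sp1). Of all 32851 promoters in the table, 3.44% held the first, 8.30% the second and 35.7% the GC box. The first 3 sequences below are of interferon-inducible members that were more than 2-fold higher, with response element and GAS matches in capitals, and the last is of Parp1, a DNA-dependent member, with GC boxes in capitals. All are written 5′ to 3′ on the strand of the gene.
Parp11 (chr6:127446590-127446889, plus strand): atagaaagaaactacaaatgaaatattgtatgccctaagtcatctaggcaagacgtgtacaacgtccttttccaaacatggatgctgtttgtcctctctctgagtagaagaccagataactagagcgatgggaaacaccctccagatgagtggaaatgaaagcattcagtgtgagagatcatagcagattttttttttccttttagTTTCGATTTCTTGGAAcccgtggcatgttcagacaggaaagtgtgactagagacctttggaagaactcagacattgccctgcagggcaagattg
Dtx3l (chr16:35938978-35939277, minus strand): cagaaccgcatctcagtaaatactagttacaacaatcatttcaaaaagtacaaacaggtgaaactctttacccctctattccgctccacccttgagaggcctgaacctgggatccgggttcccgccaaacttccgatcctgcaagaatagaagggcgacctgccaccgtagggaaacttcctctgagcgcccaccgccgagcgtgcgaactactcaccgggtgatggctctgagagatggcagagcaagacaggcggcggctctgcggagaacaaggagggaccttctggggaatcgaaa
Parp12 (chr6:39118300-39118599, minus strand): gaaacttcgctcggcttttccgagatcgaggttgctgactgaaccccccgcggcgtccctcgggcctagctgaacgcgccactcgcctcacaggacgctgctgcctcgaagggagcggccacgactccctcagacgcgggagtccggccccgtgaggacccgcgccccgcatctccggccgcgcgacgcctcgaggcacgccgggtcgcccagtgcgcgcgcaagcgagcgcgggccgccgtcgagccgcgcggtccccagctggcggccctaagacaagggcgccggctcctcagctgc
Parp1 (chr1:180568641-180568940, plus strand): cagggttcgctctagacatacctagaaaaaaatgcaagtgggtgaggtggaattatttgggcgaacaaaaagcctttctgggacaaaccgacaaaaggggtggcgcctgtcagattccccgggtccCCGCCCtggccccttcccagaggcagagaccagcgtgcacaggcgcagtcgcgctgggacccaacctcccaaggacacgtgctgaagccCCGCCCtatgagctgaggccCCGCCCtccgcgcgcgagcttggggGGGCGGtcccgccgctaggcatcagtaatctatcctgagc

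The Parp11 window printed above held a response element core, TTTCGATTTC when read on the gene's strand, 44 to 35 bases before the start. A GAS element, TTCTTGGAA, shared its last bases and ended 29 bases before the start. No other member window held either motif, the windows of Dtx3l and Parp12 included, which says only that these letters are absent from these 300 bases. Parp1 held 4 GC boxes, Parp8 held 3, and Parp2 and a second Parp11 promoter 1 each, while Parp3, Dtx3l and Parp12 held none. The Parp12 window was 73.7% G and C with 46 CpG dinucleotides, against 42.0% and 5 in the Parp11 window that held the interferon motifs. The second Parp11 window, without these motifs, was 59.0% G and C with 25 CpG dinucleotides. Which of these starts gave the measured Parp11 transcript was not determined. A match is a description of the sequence, since binding was not measured.

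On the array labelled EP4 cKO, 5 of the 6 interferon-inducible members were more than 2-fold higher (Parp9, Dtx3l, Parp14, Parp11 and Parp12) and none was lower. Of all 14669 genes with a value, 4.86% were more than 2-fold higher. None of the 3 DNA-dependent members was past 2-fold in either direction, where 12.7% of all genes were. The median log2 ratio was 1.58 over the interferon-inducible members and -0.03 over the DNA-dependent ones, a difference of 1.61, beside a median of -0.10 over all genes with a value. With 1 array per genotype, and members chosen with earlier results known, these counts and medians are descriptions.

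Parp14, a large macrodomain protein that transfers ADP-ribose and binds it, was with Dtx3l, Parp12 and Parp9 one of the 4 members with the highest ratios. Its brighter probe read 4375 ± 438 (spot error) for Villin-Cre and 15985 ± 1599 for EP4 cKO, a 3.65-fold higher signal and a log2 ratio of 1.87 ± 0.20. Its dimmer probe went from 372 ± 48.7 to 1440 ± 145, 3.87-fold. The probes of Parp14 differed in log2 ratio by less than their spot error, and 1.53% of all genes with a value had a higher ratio than its brighter one.

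Dtx3l, an E3 ubiquitin ligase of the Deltex family, read 2671 ± 269 for Villin-Cre and 9611 ± 961 for EP4 cKO. This was 3.60-fold, a log2 ratio of 1.85 ± 0.20. Parp9, the macrodomain protein that forms a complex with Dtx3l, read 4798 ± 481 and 13922 ± 1392, 2.90-fold and a log2 ratio of 1.54 ± 0.20. Both partners were thus higher on the EP4 cKO array. A second Parp9 probe, at 26.2 and 56.9, gave no ratio, since neither array had it well above background.

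Parp12, a zinc finger protein of the Golgi and of stress granules with antiviral activity, read 2348 ± 237 for Villin-Cre and 7227 ± 723 for EP4 cKO. Its signal was 3.08-fold higher, a log2 ratio of 1.62 ± 0.20. Parp11, a mono-ADP-ribosyltransferase of the nuclear envelope, had the smallest ratio of the 5. Its brighter probe went from 370 ± 46.0 to 812 ± 82.2, 2.20-fold and a log2 ratio of 1.14 ± 0.23. Its other probe read 27.4 and 190 and was well above background on the EP4 cKO array only, which gives at least 1.52-fold.

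Parp10, a mono-ADP-ribosyltransferase first described as a partner of Myc, was the interferon-inducible member that did not pass 2-fold. It read 19371 ± 1937 for Villin-Cre and 26520 ± 2652 for EP4 cKO, with a log2 ratio of 0.45 ± 0.20, which is 1.37-fold. It was read by a single probe, and 13.1% of all genes with a value had a higher ratio.

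**Figure D1:**
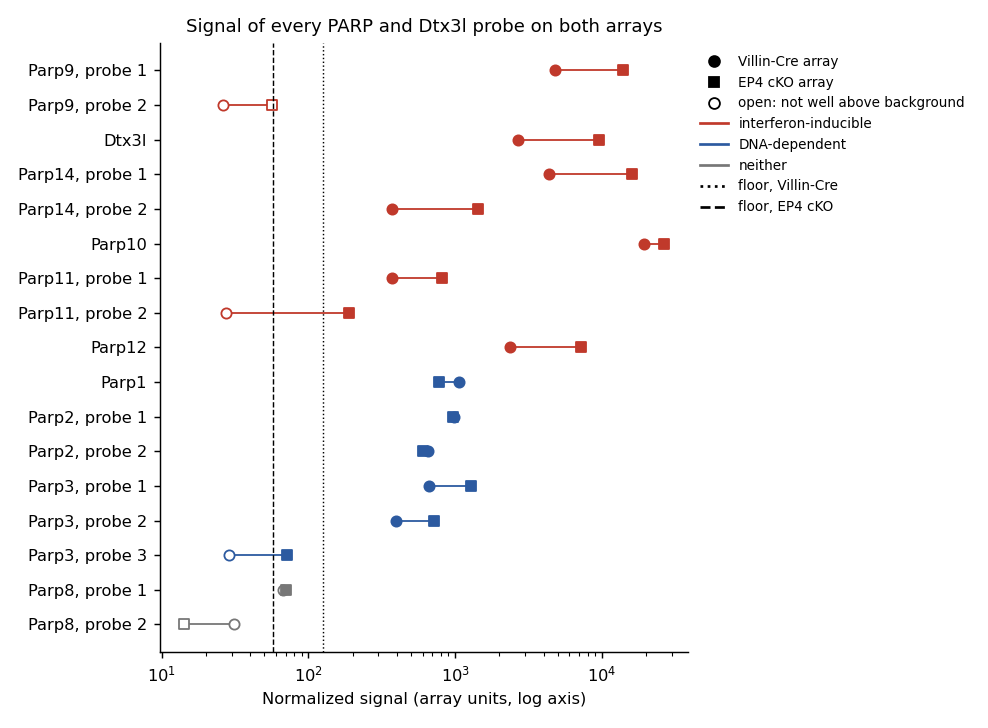
Normalized signal (array units, log axis) of each of the 17 probes on the Villin-Cre array (circles) and the EP4 cKO array (squares), open where the probe was not well above background, red for interferon-inducible, blue for DNA-dependent and grey for Parp8, with dotted and dashed lines at the floors of 125 and 57.8. All 7 interferon-inducible probes measured on both arrays lie further right on the EP4 cKO array. Of the DNA-dependent probes so measured, those of Parp1 and Parp2 lie slightly further left and the 2 of Parp3 lie further right (1.93-fold and 1.81-fold).

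Parp1, the main sensor of DNA breaks, read 1053 ± 109 for Villin-Cre and 772 ± 78.2 for EP4 cKO. The log2 ratio was -0.45 ± 0.21, 1.37-fold lower. Parp2, which acts beside Parp1 in single-strand break repair, was near equal on both arrays. Its probes went from 980 ± 103 to 961 ± 97.2 and from 650 ± 71.8 to 608 ± 62.4, log2 ratios of -0.03 and -0.10, each smaller than its spot error of 0.21 and 0.22.

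Parp3, which acts with the end-joining repair of double-strand breaks, stood apart from these. Its brightest probe read 659 ± 71.5 for Villin-Cre and 1273 ± 128 for EP4 cKO, 1.93-fold and a log2 ratio of 0.95 ± 0.21. The next probe went from 395 ± 47.2 to 715 ± 72.5, 1.81-fold. Its dimmest probe, at 28.9 and 71.7, was well above background on the EP4 cKO array only and gave no fold above 1. Parp3 was just under the 2-fold threshold and Parp11 just over it, and they differed by 0.19 in log2 ratio where their combined spot error was 0.31. Parp3 passed 2-fold under 4 of 9 alternative settings, with a log2 ratio of 1.11 when arrays were scaled to the 75th percentile, so the count of DNA-dependent members past 2-fold was 0 or 1 by small changes of scale.

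The classes were therefore not fully separated. From high to low the log2 ratios ran Parp14, Dtx3l, Parp12, Parp9, Parp11, Parp3, Parp10, Parp2 and Parp1. Neighbours among the first 4 differed by 0.02 to 0.23, within their combined spot error of 0.29, so that which of 2 neighbours was higher cannot be read. The steps from Parp9 to Parp11 (0.40 against a combined error of 0.31), from Parp3 to Parp10 (0.50 against 0.30), from Parp10 to Parp2 (0.48 against 0.29) and from Parp2 to Parp1 (0.42 against 0.30) were larger than that error. On these arrays Parp10 thus lay below the brightest probe of Parp3 and above Parp2. The spot error is assigned by the software and is larger than the median SD of 0.034 between spots of repeated probes. It holds no spread between mice, so no order of the genes beyond these arrays follows from it.

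**Figure D2:**
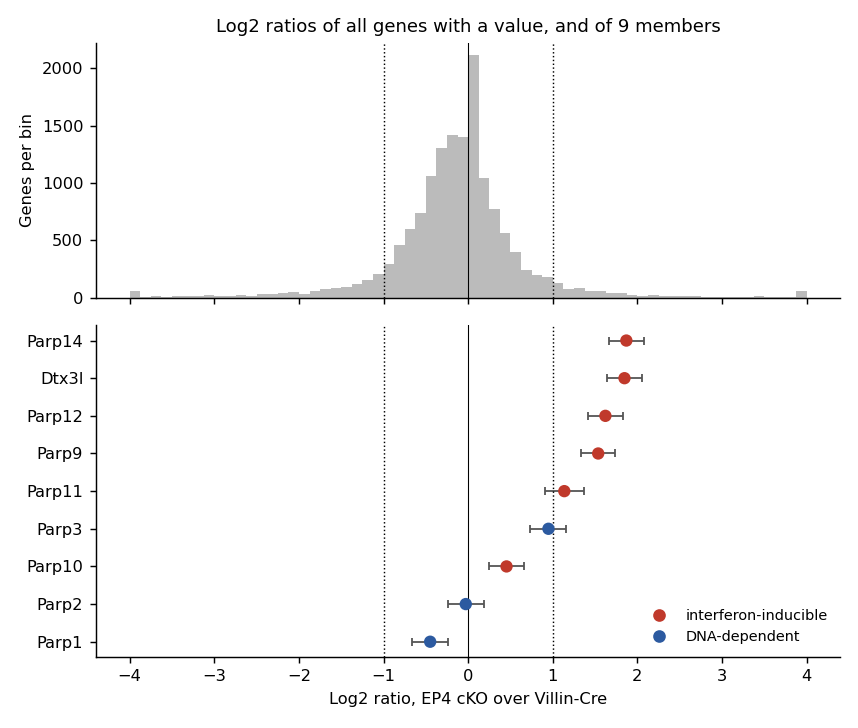
Top, number of genes per bin of log2 ratio (EP4 cKO over Villin-Cre) for all 14669 genes with a value, where the end bins also hold values beyond them and the bar at 0 includes genes whose bound gave no fold above 1. Bottom, the log2 ratios of the 9 members measured on both arrays with their spot error as bars, where Parp14, Dtx3l, Parp12, Parp9 and Parp11 lie beyond the dotted 2-fold line and Parp3 just inside it.

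Parp8 was barely detected in these colons. One probe read 67.1 for Villin-Cre and 70.3 for EP4 cKO, well above background on the second only, and gave no fold above 1. The other read 31.1 and 14.2 and was well above background on neither. No change of Parp8 was measurable at these signals.

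Parp14, Dtx3l and Parp9 are neighbours on chromosome 16, where Dtx3l and Parp9 overlap in the reference and are known to be transcribed from a shared, interferon-responsive promoter. The protein-coding genes around them were read to see how far the higher signals reached. On the Parp14 side, Hspbap1 went from 1084 to 838, a log2 ratio of -0.37, and Slc49a4 from 4829 to 3882, a log2 ratio of -0.31. On the Parp9 side, Kpna1, which encodes a nuclear import adaptor, went from 1002 to 1040, a log2 ratio of 0.05. Wdr5b went from 240 to 246, a log2 ratio of 0.03. Each of these 4 genes was below 2-fold in either direction, while the 3 genes between them were 2.90-fold to 3.65-fold higher. Scaling to the E1A control spots, which raised all genes, gave 0.66 for Hspbap1 and 0.72 for Slc49a4 and took Kpna1 (1.09) and Wdr5b (1.07) past 2-fold, and the dimmer probe of Slc49a4 alone gave -1.35.

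**Figure D3:**
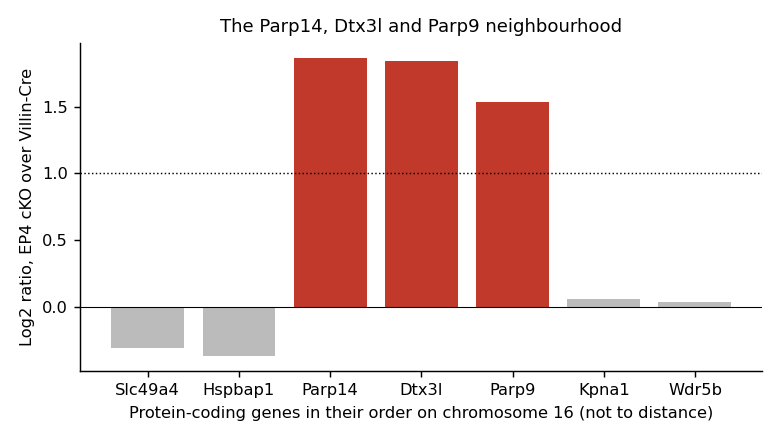
Log2 ratio (EP4 cKO over Villin-Cre) of 7 protein-coding genes in their order on chromosome 16, bars from 0, with distances not to scale and a dotted line at 2-fold. Parp14 (1.87), Dtx3l (1.85) and Parp9 (1.54) stand between 4 genes from -0.37 to 0.05.

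By log2 ratio, the 5 genes closest to Parp14 among those measured on both arrays were Mocos, Ccrl2, Stat2, Mov10 and Myl7, all within 0.01 of its 1.87. Stat2, a transcription factor of the interferon response, went from 2877 to 10562. Mov10, an RNA helicase, went from 2887 to 10604. Ccrl2, a chemerin-binding receptor, went from 306 to 1121, Mocos, the sulfurase that matures the molybdenum cofactor, from 1717 to 6252, and Myl7, a myosin light chain of the heart atrium, from 194 to 715. Likeness here is the distance of a single ratio between 2 arrays, so it carries no more than that.

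The genes that surround these members in the pathway were read from lists. Of 12 interferon signaling genes, all with a value, 5 were past 2-fold upward and 0 downward, and the median log2 ratio was 0.61. The count was between 4 and 10 under the other settings. Usp18, which removes ISG15 and damps the interferon receptor, read 136, not well above background, and 5807, at least 42.7-fold. Socs1, a feedback inhibitor of JAK kinases, went from 361 to 1802, 4.99-fold. The remaining genes past 2-fold were transcription factors: Stat2 at 3.67-fold, Irf9, the DNA-binding partner of STAT2, which went from 4563 to 15347 (3.36-fold), and Irf1, which went from 29301 to 74994 (2.56-fold). The receptor subunits did not pass 2-fold, and the brightest of them, Ifngr1, went from 43697 to 52397, 1.20-fold.

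Other members of the PARP family made up the next list, plotted as other ADP-ribosyltransferases. Of its 7 genes (Parp4, Parp6, Tiparp, Parp16, Tnks, Tnks2 and Zc3hav1), all measured on both arrays, 0 passed 2-fold in either direction, with log2 ratios from -0.88 to 0.95 and a median of 0.26. The brightest, Tnks2, a tankyrase, went from 13600 to 10610, a log2 ratio of -0.36. Of 3 genes singled out after their values were seen, Tnks, the other tankyrase, went from 560 to 305 (1.84-fold lower). Tiparp, a target of the aryl hydrocarbon receptor, went from 1085 to 2095 (1.93-fold), and Zc3hav1, the zinc finger antiviral protein, whose PARP domain is inactive, from 836 to 1542 (1.85-fold). The count was 2 higher under scaling to the 75th percentile and 4 higher with the E1A spots (median 1.29). With the dimmest probe of each gene it was 0 higher and 1 lower, and the median turned to -0.36.

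Of 11 genes that remove or bind ADP-ribose, 0 passed 2-fold, with a median of 0.06 that turned to -0.10 when only genes measured on both arrays were kept. With the E1A spots 6 were higher. The brightest, Nudt9, an ADP-ribose hydrolase, went from 32124 to 34412. Of 11 partners in single-strand break repair, 0 passed 2-fold and the median was -0.25, and it stayed below 0 except under scaling to the E1A spots, where it was 0.78 and 2 genes were higher. The brightest, Hpf1, the cofactor that directs Parp1 and Parp2 to serine residues, went from 13264 to 12594. The ratios of Parp1 and Parp2 lay within the range of these repair genes, -0.66 to 0.63, and that of Parp3 (0.95) lay above it.

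Of the 4 other Deltex genes, 3 had a value. Dtx1, a regulator of Notch signaling, went from 397 to 151, 2.63-fold lower, the opposite direction to Dtx3l, though it no longer passed 2-fold under normexp with quantile normalization or under scaling to the E1A spots. Dtx2, the brightest, went from 4725 to 4447. Of 17 genes of NAD supply and use, 12 had a value, 1 was more than 2-fold higher and 0 lower. The count was 2 higher under scaling to the 75th percentile, under loess and with the trimmed mean over all spots, and 4 with the E1A spots. With dim probes at their own signal, all 17 genes had a value and 2 were higher and 3 lower. The median of -0.13 turned to 0.04 under loess. The gene past 2-fold was Nampt, the rate-limiting enzyme of NAD salvage, which went from 1954 to 5718, 2.93-fold. Naprt, the brightest of the others, which makes the NAD precursor from nicotinic acid, went from 31694 to 26967.

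**Figure D4:**
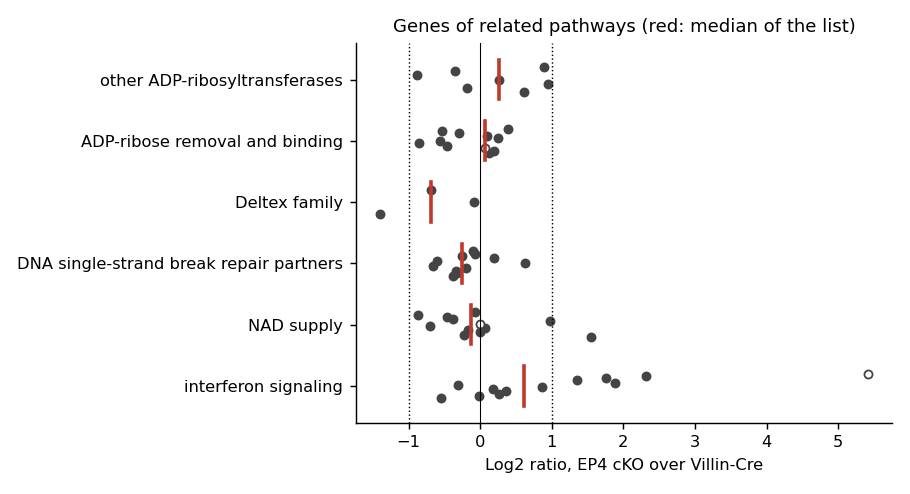
Log2 ratios (EP4 cKO over Villin-Cre) of the genes with a value in 6 lists, 1 point per gene, open where the ratio is a bound, with the median of each list in red and dotted lines at 2-fold. 5 interferon signaling genes lie beyond the upper line, with Usp18 furthest at 5.42, and of the other 5 lists only Nampt (above) and Dtx1 (below) pass a line.

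The labelled tissue and other cells of the colon were checked with marker genes, 5 listed for each of 8 cell types, of which Trac (T cells) and Ly6g (neutrophils) had no matching probe. Sums include the signals of probes not well above background. All 5 epithelial markers were measured on both arrays, and their summed signal went from 1015460 on the Villin-Cre array to 1459260 on the EP4 cKO array. Most of that difference was Krt20, a keratin of surface cells, which went from 146575 to 510711, while Epcam was 1.47-fold, Vil1 1.44-fold and Krt8 1.03-fold higher and Cdh1 was the 1 that was lower, from 67619 to 62930. Such sums are led by the brightest probes. The T cell markers summed to 4753 and 4521, most of it Cd3e, and moved in both directions, with log2 ratios of 1.28 for Cd3g, 0.91 for Cd2, -0.10 for Cd3e and -0.79 for Cd3d and a median of 0.41. Of the B and plasma cell markers, Jchain alone was measured on both arrays, at 156 and 181, and Cd79a, Ms4a1 and Mzb1 were not well above background on either, so that their sums of 353 and 354 are mostly background. Those of macrophages summed to 5398 and 3740, most of it Csf1r, which went from 4874 to 2817, with Cd68 at a log2 ratio of -0.09, Adgre1 and Cd163 not well above it on either and Mrc1 at least 4.31-fold higher. The neutrophil markers summed to 106565 and 81720, nearly all of it Csf3r, while Cxcr2, Mpo and Ngp were not well above background on either.

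Of the 8 marker lists, that of fibroblasts differed most. Their summed signal went from 12442 to 290, and all 4 with a value, Col1a1, Col1a2, Col3a1 and Dcn, were lower, with a median log2 ratio of -4.92, partly from bounds. Over the other settings that median ran from -5.40, with genes measured on both arrays only, to -3.16, under normexp with quantile normalization. It was -3.89 under scaling to the E1A spots. Dcn, a matrix proteoglycan, went from 6006 to 110. Smooth muscle markers summed to 22840 and 33427, with log2 ratios of 0.62 for Acta2, 0.38 for Tagln and -2.73 for Cnn1. Endothelial markers summed to 1134 and 1148. What the difference in these cells, or any difference in the make-up of the pooled tissue, contributed to the ratios of the PARP genes and Dtx3l was not tested.

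The ratios of the members were recomputed under 9 other settings of background correction, scaling, filter and choice of probe. Dtx3l, Parp12, Parp9, Parp10 and Parp1 had 1 probe with a ratio each. For them the settings for dim probes, filter and choice of probe repeat the main value by construction and test nothing. Parp14 (1.87 to 2.90), Dtx3l (1.74 to 2.88), Parp12 (1.53 to 2.65) and Parp9 (1.52 to 2.57) stayed more than 2-fold higher in all 9. Parp11 did so in 7, and the other settings, the mean of its probes (0.87) and its dimmest probe (0.60), give lower bounds that do not place it below 2-fold. Parp10 passed 2-fold under scaling to the E1A spots alone, at 1.49. Parp1 was below 0 in 8 of 9, some of which repeat its main value, and at 0.58 with the E1A spots. It was -0.32 with the trimmed mean over all spots, -0.29 under scaling to the 75th percentile and -0.24 under loess. Under normexp with quantile normalization it was -0.19, smaller than its spot error of 0.21. Parp2 changed sign with the settings, from -0.10 with its dimmer probe to 0.17 under loess and above 2-fold with the E1A spots. The E1A setting moved the median of the genes measured on both arrays to 0.88, so that all members moved up with it.

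**Figure D5:**
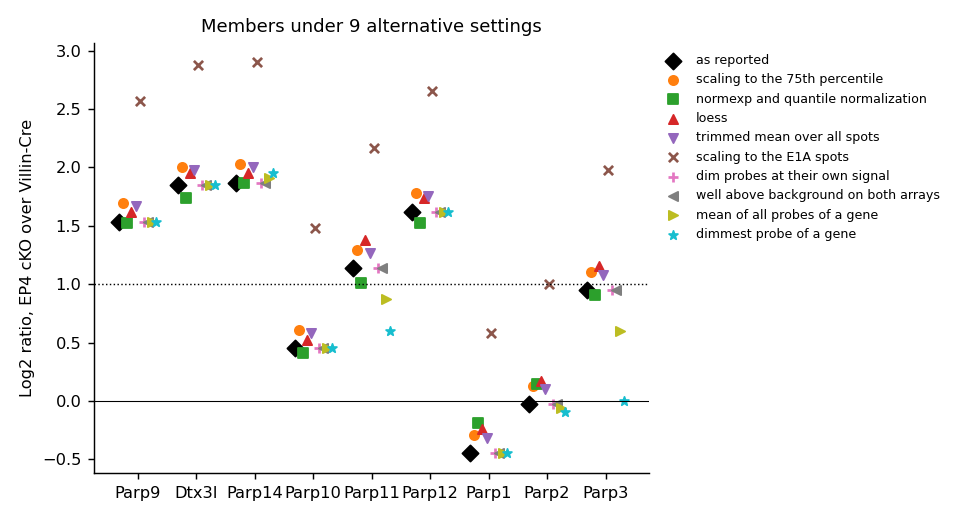
Log2 ratio (EP4 cKO over Villin-Cre) of 9 members as reported (black diamonds) and under 9 alternative settings (other marks), with a dotted line at 2-fold. Parp14, Dtx3l, Parp12 and Parp9 lie above the line throughout, Parp11 and Parp3 have marks on both sides, of which those for the mean and the dimmest of their probes rest on bounds, and scaling to the E1A spots gives the highest mark of every gene.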

How the data were processed

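Each array was assigned to its genotype from the labels. The authors deposited scanner output as intensity per spot, already corrected for background and spatial trend by the software (Feature Extraction, 12.0.3.1 per the file headers and 11.5.1.1 per the submitters' processing notes), together with its error and flags.

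From these deposited intensities, control spots and outlier spots were dropped (147 for Villin-Cre, 126 for EP4 cKO), spots of a probe were averaged, and each array was scaled to a mean of 2500 after trimming 2% of probes at each end (factors 3.45 and 2.68), which follows the scaling in the methods. Of 56593 probes, 45.4% and 51.6% were well above background, and no spot was saturated. The number of arrays limits the precision. Probes were named through RefSeq accessions (32989 matched, 58.3%), and the probe with the highest geometric mean signal stood for its gene. The columns of spot errors came from the software's error model. Where a probe had 10 spots, the log2 ratio varied between spots with a median SD of 0.034 over 165 probes.

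With 1 array per genotype no test was possible and no p-value is given. Both arrays shared 1 slide, scan protocol and scan day. The members and the gene lists were chosen with earlier results of these data known, and some genes of the lists are not reported here. The genes named are the 10 members, Ptger4, the genes past 2-fold and the brightest other gene of each list (for marker lists, those needed to describe their sums), the 5 genes closest to Parp14 in log2 ratio, and the nearest 2 protein-coding genes on each side of the Parp9, Dtx3l and Parp14 group. Tiparp, Zc3hav1 and Tnks were named outside this rule. Alternatives were scaling to the 75th percentile, to the trimmed mean over all spots or to 239 E1A control spots, loess, normexp (offset 50, on the median signal) with quantile normalization, other treatments of dim probes, other choices of probe and other fold thresholds. Calculations used Python 3.11.15, pandas 2.3.3, R 4.3.3 and limma 3.58.1 and were tested on simulated data. Reference coordinates are those of GRCm38.p6, given for promoters, while the array grid refers to another build.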

Additional observations from a re-analysis of the deposited data

How the results depend on the processing

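The count of interferon-inducible members more than 2-fold higher, 5 of 6, moved to 3 with a 3-fold threshold, was 4 with the mean or the dimmest of a gene's probes, where Parp11 has only a lower bound that does not place it below 2-fold, and 6 with scaling to the E1A spots. The count of DNA-dependent members past 2-fold, 0 of 3, became 1 under scaling to the 75th percentile, under loess, with the trimmed mean over all spots and with a 1.5-fold threshold, and 2 under scaling to the E1A spots. The difference of the class medians, 1.61, was 1.38 under normexp with quantile normalization and 1.25 with class means in place of medians. A count cannot change sign, and the difference of medians stayed above 0. Scaling of whole arrays cannot move that difference. The settings for dim probes and filter could not move it either, since all members of both classes were measured on both arrays. Its value of 1.61 there was fixed in advance. Apart from the shifts given above, the counts and the difference moved by less than 1.5 times or the spot error. Each scaling of whole arrays moves every log2 ratio measured on both arrays by the same amount, and the thresholds act on unchanged ratios. The cause of the remaining shifts was not tested. Signal over background limits Parp8 and the dimmer probes of Parp9, Parp3 and Parp11. No paired analysis was possible because each genotype has 1 array, and for the same reason no array could be left out.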
